A study of Mus musculus with 6 samples.

Results

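The core genes of cytosolic DNA sensing and 3 genes of the p200 family, 10 genes in all, were chosen by name from the 30914 genes of the deposited table, and each name had a single row. Cgas, Ifi203, Ifi204 and Mndal were taken as sensors, Sting1 as the adaptor, Trex1 and Enpp1 as negative regulators, Tbk1 and Ikbke as kinases and Irf3 as the transcription factor.

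Cells recognise DNA that reaches the cytosol through the enzyme cGAS, which binds double-stranded DNA and makes the messenger cGAMP. The messenger binds the membrane adaptor STING, which recruits the kinase TBK1, and TBK1 phosphorylates the transcription factor IRF3 so that type I interferon genes are switched on. The p200 proteins, a family encoded by neighbouring interferon-inducible genes in the mouse, bind nucleic acids, and some of them have been linked to the same adaptor. The pathway is held back by nucleases such as TREX1, which degrades cytosolic DNA, and by ENPP1, which hydrolyses cGAMP outside the cell. In the heart the pathway has been studied in macrophages, endothelial cells and stressed cardiomyocytes.

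Levels were measured by RNA sequencing in the hearts of 6 male C57BL/6J mice, wild type and 8 weeks old. All 6 received angiotensin II (Ang II), a peptide hormone that raises blood pressure and drives cardiac hypertrophy, at 1 μg/kg/min for 4 weeks from osmotic pumps. Of these, 3 mice were additionally given tectochrysin (Tec), a plant flavonoid, at 5 mg/kg during the final 2 weeks (the Ang II + Tec group, called Tec-treated), and the other 3 mice were left without it (the Ang II group, called Ang II-only). No heart without Ang II was analysed here, so the values compare treated with untreated hypertrophic hearts and do not show what Ang II itself did. The comparison addresses whether the transcripts of the pathway differ with Tec, which the title of the study names as a ligand of STING.

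The values are FPKM, fragments scaled to the length of the transcript and to the mapped fragments of the library, so levels can be compared between genes. They hold no fragment totals. The spacing of the lowest values gave a relative depth of 0.941 to 1.26 over the 6 libraries. Transcripts of the mitochondrial genome made up 40.1% to 48.9% of the summed FPKM in the Ang II-only hearts against 49.6% to 52.5% in the Tec-treated hearts, and the change of the other genes was therefore also computed with their sum set equal. The 13089 genes with at least 0.5 FPKM in at least 3 libraries were compared with limma on log2(FPKM + 1), a scale that understates changes of low genes. Calls needed both a Benjamini-Hochberg adjusted p-value under 0.05 and a log2 fold change of 1 or more in size. Of all tested genes, 80% were lower with Tec, with a median log2 fold change of -0.17. This median was 0.0020 after the libraries were rescaled by the median of ratios, and the values of the 10 genes are to be read against that shift. The cardiomyocyte markers Myh6, Actc1, Tnnt2, Tnni3, Myl2, Ryr2 and Pln summed to between 8446 and 10317 FPKM in the 6 libraries, whereas the 4 lymphocyte markers summed to at most 0.43 FPKM. The 4 atrial markers summed to 6204, 10253 and 256 FPKM in Ang II replicates 1, 2 and 3 and to 906, 5032 and 128 FPKM in Ang II + Tec replicates 1, 2 and 3. Most of each sum was Nppa (Anp), which the study counts among the genes associated with cardiac hypertrophy. The markers Myl7, Sln and Myl4 were at most 1.58 FPKM in Ang II replicate 3 and in Ang II + Tec replicates 1 and 3. In the other libraries they were at least 67.1 FPKM. Ang II replicate 3 thus stood far below its own group and Ang II + Tec replicate 2 far above its own, and the part of this in the values below was not tested.

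Of the 10 genes, 8 passed the limit for testing, and Cgas and Ikbke did not. With Tec all 10 had lower means. In bulk hearts fewer cells of a type and less RNA per cell cannot be told apart. None of them was called, 0 of 8 in either direction, where 0.16% of all tested genes were called and 0.0764% were called as lower (limma, adjusted p-values of the 8 from 0.180 to 0.407). At an unadjusted p-value under 0.05, 6 of the 8 tested genes were lower with Tec, against 16.5% of all tested genes, and 0 were higher, against 2.09%. The median log2 fold change of the 8 was -0.49. After rescaling by the median of ratios, 3 of the 8 (Ifi204, Sting1 and Trex1) were lower at an unadjusted p-value under 0.05, against 8.2% of all tested genes. Quantile normalization gave 3 of 8 against 7.85%, equal sums of FPKM gave 6 of 8 against 23%, and equal sums outside the mitochondrial genome gave 5 of 8 against 13.6%. On the deposited values, the 3 Ang II libraries lay wholly above the 3 Ang II + Tec libraries for Ifi204, Mndal and Trex1. This separation was seen in that direction in 18.9% of all tested genes. For Mndal the groups overlapped after rescaling by the median of ratios. With 3 mice against 3, the smallest p-value of an exact permutation test is 0.1. Smaller values from limma rest on assumed normal errors and on a spread estimated over many genes.

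**Figure D1:**
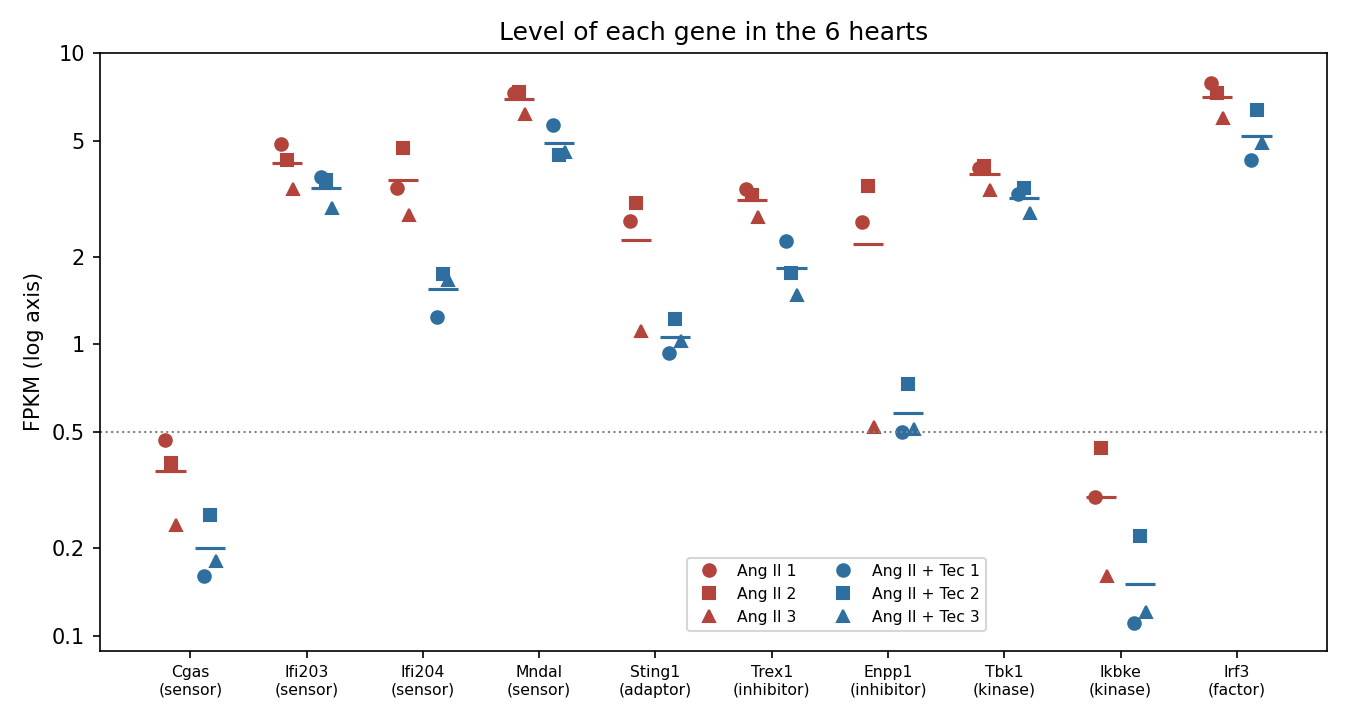
FPKM of the 10 genes on a log axis, with 1 marker per heart (circle, square and triangle for replicates 1, 2 and 3), horizontal bars at the group means, and a dotted line at the limit for testing of 0.5 FPKM. Ang II replicate 3 is the lowest of its group in all 10 genes, as it is in the median-of-ratios factor of the whole library (0.944). It is below the highest Ang II + Tec heart in 7 of them, among them Sting1 (1.11 FPKM) and Enpp1 (0.52 FPKM).

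Among the sensors, Cgas (ENSMUSG00000032344, GRCm38 chromosome 9 from 78430526 to 78443237, the build of all positions given here), the DNA-binding synthase of cGAMP, was below the limit for testing in each library. Its FPKM were 0.47, 0.39 and 0.24 in the Ang II-only hearts against 0.16, 0.26 and 0.18 in the Tec-treated hearts. The third Ang II heart lay below the second Ang II + Tec heart, so the groups overlapped. The means were 0.367 ± 0.117 (SD, n = 3) and 0.20 ± 0.0529 FPKM (SD, n = 3), and the log2 means differed by -0.18 (two-sided exact permutation test, p = 0.2). Cgas shares 201 exonic bases with Gm8093 on the opposite strand, and whether strand was used in the quantification is not given in the sources used here.

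Ifi204 (ENSMUSG00000073489, chromosome 1 from 173747293 to 173766943), a p200 gene often set beside human IFI16, had the lowest p-value of the tested sensors. Its FPKM were 3.45, 4.73 and 2.78 in the Ang II-only hearts against 1.24, 1.74 and 1.66 in the Tec-treated hearts. Every Ang II heart was above every Ang II + Tec heart, and the mean was 2.36-fold lower with Tec. The log2 fold change was -0.85 (standard error 0.18, 95% interval -1.27 to -0.44, limma adjusted p-value 0.180). It was -0.69 under median-of-ratios scaling and -0.66 after quantile normalization, so most of it lay beyond the shift of the whole table.

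Mndal (ENSMUSG00000090272, chromosome 1 from 173849126 to 173880187), another p200 gene, was the most abundant of the sensors. Its FPKM were 7.28, 7.34 and 6.16 in the Ang II-only hearts against 5.64, 4.48 and 4.58 in the Tec-treated hearts, without overlap. Its log2 fold change, -0.43 with a standard error of 0.13 (limma adjusted p-value 0.221), became -0.22 under median-of-ratios scaling (unadjusted limma p-value 0.129). The groups overlapped under that scaling. Ifi203 (ENSMUSG00000039997, chromosome 1 from 173920407 to 173942672), a further p200 gene, had FPKM of 4.88, 4.29 and 3.41 in the Ang II-only hearts against 3.75, 3.65 and 2.93 in the Tec-treated hearts. These ranges overlapped, and the log2 fold change, -0.22 with a standard error of 0.15 (limma adjusted p-value 0.407), was -0.032 under median-of-ratios scaling. Its 95% interval on the deposited scale ran from -0.57 to 0.13.

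The adaptor Sting1 (ENSMUSG00000024349, chromosome 18 from 35733679 to 35740489) divided the Ang II group. Its first 2 Ang II hearts were at 2.65 and 3.06 FPKM, whereas the third was at 1.11, inside the range of 0.93 to 1.22 FPKM of the Ang II + Tec hearts. The SD of the Ang II group (1.03 FPKM) was therefore far wider than that of the Ang II + Tec group (0.147 FPKM). The log2 fold change was -0.62 (standard error 0.24, limma adjusted p-value 0.250), and it moved to -0.90 when Ang II replicate 3 was left out and to -0.43 when replicate 2 was.

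Of the negative regulators, Trex1 (ENSMUSG00000049734, chromosome 9 from 109057933 to 109059734), the exonuclease, had FPKM of 3.42, 3.26 and 2.73 in the Ang II-only hearts against 2.26, 1.75 and 1.48 in the Tec-treated hearts. The groups did not overlap, at a log2 fold change of -0.55 (standard error 0.14, 95% interval -0.89 to -0.22, limma adjusted p-value 0.201) and of -0.38 under median-of-ratios scaling. All 1147 exonic bases of Trex1 also lie in exons annotated to Atrip, a checkpoint gene on the same strand (GENCODE M21), so the division of fragments between them rests on the quantification. Atrip had FPKM of 2.31, 2.19 and 1.82 in the Ang II-only hearts against 1.77, 1.98 and 2.21 in the Tec-treated hearts. The sum of both genes was 5.24 ± 0.617 (SD, n = 3) and 3.82 ± 0.186 FPKM (SD, n = 3), again without overlap.

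Enpp1 (ENSMUSG00000037370, chromosome 10 from 24637914 to 24712159), the cGAMP hydrolase, had the largest SD of the 10 genes in the Ang II group (1.53 FPKM). Its FPKM were 2.62, 3.49 and 0.52 in the Ang II-only hearts against 0.50, 0.73 and 0.51 in the Tec-treated hearts. Ang II replicate 3 was lower than Ang II + Tec replicate 2, and it was close to the other 2 treated hearts. The log2 fold change was -0.89 (standard error 0.37, limma adjusted p-value 0.265). Without Ang II replicate 3 it was -1.35 (standard error 0.14, limma adjusted p-value 0.00221), which made Enpp1 the only one of the 8 genes to be called, where 4.26% of all tested genes were called in that fit. Without Ang II replicate 2 it was -0.57.

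Neither kinase separated the groups. Tbk1 (ENSMUSG00000020115, chromosome 10 from 121546455 to 121586787), the kinase that phosphorylates IRF3, had FPKM of 4.02, 4.09 and 3.39 in the Ang II-only hearts against 3.28, 3.45 and 2.83 in the Tec-treated hearts. The groups overlapped, with a log2 fold change of -0.21 (standard error 0.12, 95% interval -0.49 to 0.078, limma adjusted p-value 0.360) that was -0.023 under median-of-ratios scaling. Ikbke (ENSMUSG00000042349, chromosome 1 from 131254343 to 131279606), which encodes the related kinase IKKε, had only 0.30, 0.44 and 0.16 FPKM in the Ang II-only hearts against 0.11, 0.22 and 0.12 FPKM in the Tec-treated hearts. Its log2 means differed by -0.17 (two-sided exact permutation test, p = 0.2). Ikbke shares 159 and 65 exonic bases with the opposite-strand genes Gm28914 and Gm28913.

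Irf3 (ENSMUSG00000003184, chromosome 7 from 44997648 to 45002848) was the most abundant of the 10 genes in both groups. Its FPKM were 7.90, 7.31 and 5.96 in the Ang II-only hearts against 4.30, 6.37 and 4.89 in the Tec-treated hearts. The lowest Ang II-only heart was below the highest Tec-treated heart, and the log2 fold change was -0.39 (standard error 0.16, limma adjusted p-value 0.266), or -0.19 under median-of-ratios scaling. Irf3 shares 88 exonic bases with Bcl2l12 on the opposite strand.

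**Figure D2:**
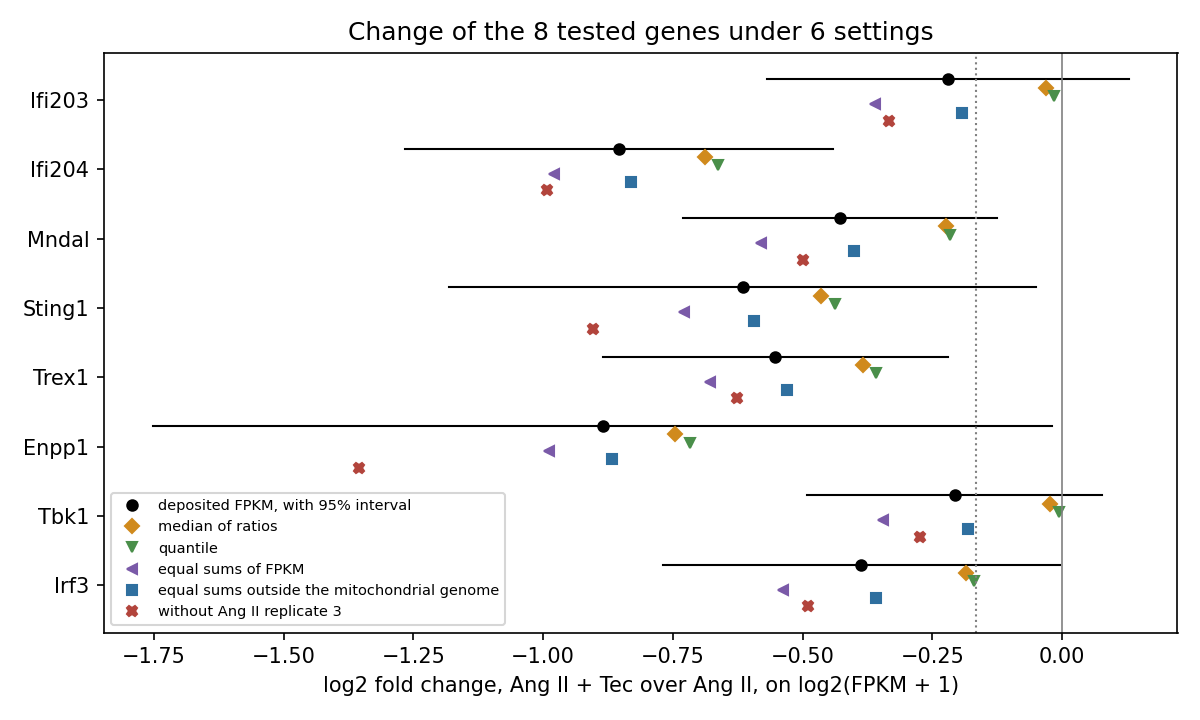
Log2 fold change of the 8 tested genes (Ang II + Tec over Ang II, on log2(FPKM + 1)) under the deposited scaling with its 95% interval, under 4 other scalings and without Ang II replicate 3. The dotted line is the median of all tested genes (-0.17). Ifi203 and Tbk1 lie close to 0 under median-of-ratios scaling (-0.032 and -0.023), whereas Ifi204 and Enpp1 stay below -0.6 under each scaling drawn.

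The order of the levels was nearly the same in both groups. In the Ang II group Irf3 (7.06 ± 0.995 FPKM, SD, n = 3) and Mndal (6.93 ± 0.665) led with overlapping ranges. They were followed by Ifi203, Tbk1, Ifi204, Trex1, Sting1 and Enpp1, between 4.19 and 2.21 FPKM, where each gene overlapped its neighbour. In the Ang II + Tec group the same stretch spread out. Ifi203 (3.44 ± 0.447 FPKM, SD, n = 3) and Tbk1 (3.19 ± 0.320) still overlapped, but Tbk1 stood clear of Trex1 (1.83 ± 0.396), Ifi204 narrowly clear of Sting1 (1.06 ± 0.147) and Sting1 clear of Enpp1 (0.580 ± 0.130). Cgas and Ikbke were the lowest genes in both groups and overlapped each other.

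The roles were compared by the mean of log2(FPKM + 1) over the genes of each role in a library, as a description without a test. The sensors were at 2.08, 2.11 and 1.80 in the Ang II-only hearts against 1.59, 1.61 and 1.53 in the Tec-treated hearts, a difference of -0.42 without overlap. The negative regulators were at 2.00, 2.13 and 1.25 in the Ang II-only hearts against 1.14, 1.13 and 0.952 in the Tec-treated hearts, a difference of -0.72 without overlap in which Ang II replicate 3 stood just above the treated hearts. The kinases were at 1.35, 1.44 and 1.17 in the Ang II-only hearts against 1.12, 1.22 and 1.05 in the Tec-treated hearts, a difference of -0.19 with overlap. Sensors thus exceeded kinases by 0.73, 0.68 and 0.63 within the Ang II libraries and by 0.47, 0.39 and 0.48 within the Ang II + Tec libraries. The negative regulators exceeded the kinases by 0.65 and 0.69 in Ang II replicates 1 and 2, by 0.077 in Ang II replicate 3, and by 0.021, -0.095 and -0.098 in the Ang II + Tec libraries. Means over roles in which a gene is near 0, such as Cgas or Ikbke, move with the pseudocount.

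A ratio of 2 genes within a library does not depend on how the libraries are scaled. With Tbk1 as the common denominator, Ifi203 was at 1.21, 1.05 and 1.01 in the Ang II-only hearts against 1.14, 1.06 and 1.04 in the Tec-treated hearts, an overlap of the groups. Ifi204 over Tbk1 was at 0.858, 1.16 and 0.820 in the Ang II-only hearts against 0.378, 0.504 and 0.587 in the Tec-treated hearts. Trex1 over Tbk1 was at 0.851, 0.797 and 0.805 in the Ang II-only hearts against 0.689, 0.507 and 0.523 in the Tec-treated hearts. Ifi204, Mndal and Trex1 were the members whose ratios to Tbk1 did not overlap between the groups, and those of Sting1, Enpp1, Cgas, Ikbke, Ifi203 and Irf3 overlapped. For Mndal the margin was narrow, from 1.72 in the highest Tec-treated heart to 1.79 in the lowest Ang II-only heart. The share of all tested genes separated by such a ratio was not computed. On the deposited values, 18.9% were lower with Tec without overlap. Trex1 over Atrip was almost constant in the Ang II hearts, at 1.48, 1.49 and 1.5, and was 1.28, 0.884 and 0.670 in the Ang II + Tec hearts. Enpp1 over Sting1 was 0.989 and 1.14 in Ang II replicates 1 and 2, 0.468 in Ang II replicate 3, and 0.495 to 0.598 in the Ang II + Tec hearts.

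Ang II replicate 3 had the lowest value of its group in all 10 genes, but to a different degree. Its place was expressed on the log2 scale as a percentage of the way from the Ang II + Tec mean to the mean of Ang II replicates 1 and 2. Trex1, Ifi204 and Mndal were at 65.1%, 57.9% and 57.0%, so these genes kept more than the midpoint of the distance. Irf3, Tbk1 and Cgas were at 37.6%, 26.0% and 19.0%. Ikbke, Sting1, Ifi203 and Enpp1 were at 5.48%, 4.09%, -1.74% and -3.89%, that is, level with the treated hearts. These places use the deposited values. The median-of-ratios factors, which follow the whole table, were 1.15, 1.18 and 0.944 in Ang II replicates 1, 2 and 3. They were 0.868, 1.03 and 0.883 in Ang II + Tec replicates 1, 2 and 3. Ang II replicate 3 was thus also low over the table as a whole, and the places were not computed after rescaling. Ang II replicate 3 was also the lowest of its group in the atrial markers (256 FPKM in sum, nearly all of it Nppa), whose part in its values was not tested.

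With library weights, Ang II replicate 3 counted least, and 8 of the 8 had an adjusted p-value under 0.05 and were lower, against 54.6% of all tested genes, with 1 of them called (Enpp1) against 3.86%.

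Without Ang II replicate 3, Ifi204, Mndal, Sting1, Trex1 and Enpp1 had an adjusted p-value under 0.05, 5 of the 8 tested genes, where 26.2% of all tested genes were lower at that limit in the same fit. At an unadjusted p-value under 0.05 there were 7 of the 8, against 39.3% of all tested genes. That fit thus lowered the p-values of the whole table as well. Ifi204 and Trex1 had an unadjusted p-value under 0.05 in each of the 6 fits without 1 library, and Sting1 and Enpp1 in 1 of them, the fit without Ang II replicate 3.

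The markers of other cell types differed unevenly between the groups, and 0 of those tested had an adjusted p-value under 0.05 (limma). At an unadjusted p-value under 0.05, 16.5% of all tested genes were lower with Tec. Of the 14 tested macrophage markers, 12 were lower with Tec at an unadjusted p-value under 0.05, and the 15 listed summed to 386, 576 and 302 FPKM in the Ang II-only hearts against 207, 208 and 234 FPKM in the Tec-treated hearts. C1qa, a complement gene of macrophages, had 67.9, 82.5 and 47.4 FPKM in the Ang II-only hearts against 26.3, 28.1 and 32.3 FPKM in the Tec-treated hearts. The 4 pan-leukocyte markers summed to 11.1 to 27.9 FPKM without Tec and 6.7 to 7.56 FPKM with it, and 3 of the 3 tested were lower at that limit. The 7 fibroblast markers summed to 705, 929 and 163 FPKM in the Ang II-only hearts against 136, 221 and 150 FPKM in the Tec-treated hearts, with 4 of 7 lower at an unadjusted p-value under 0.05. The 6 endothelial markers summed to between 98.7 and 106 FPKM in the Ang II-only hearts against between 85.5 and 94.04 FPKM in the Tec-treated hearts, and 2 of them were lower at that limit. The 3 smooth muscle markers summed to 129, 286 and 90.4 FPKM in the Ang II-only hearts against 49.3, 222 and 75.9 FPKM in the Tec-treated hearts, with overlap, and 0 of 3 were lower at that limit. None of the markers was at 0 in all 6 libraries. By the same measure of place, Ang II replicate 3 was at 32.9% for the mean of the macrophage markers, 7.10% for the fibroblast markers, 70.2% for the endothelial markers and -17.9% for the smooth muscle markers. The part of these cell types in the values of the 10 genes was not tested.

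By the root mean square difference of centred log2 values over the 6 libraries, the genes nearest to Sting1 among the 5231 genes with at least the SD of Sting1 divided by 2 were Pmp22 (0.037), Ube2l6 (0.048), Slc39a11 (0.049), Msn (0.050) and C1galt1c1 (0.051). Pmp22, a myelin and membrane protein gene, had 42.3, 45.3 and 22.9 FPKM in the Ang II-only hearts against 21.0, 25.9 and 22.2 FPKM in the Tec-treated hearts, again with Ang II replicate 3 low. Of the other tested members, Ifi204 was nearest to Sting1 at 0.21 and Tbk1 farthest at 0.31.

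Ifi203, Ifi204 and Mndal lie among other p200 genes between 173468485 and 174031810 on chromosome 1. Of the 9 other p200 genes in the table, 4 were lower with Tec without overlap. Ifi211 was 1 of the 3 above the limit for testing, where 18.9% of all tested genes separated in this direction. The other 3 of the 4 were below the limit, and no such share was computed for genes below it. Ifi211, the neighbour between Mndal and Ifi203, had 9.46, 8.23 and 6.77 FPKM in the Ang II-only hearts against 4.54, 5.69 and 4.74 FPKM in the Tec-treated hearts (log2 fold change -0.61, standard error 0.15, limma adjusted p-value 0.201). Ifi206 had 0.33, 0.43 and 0.16 FPKM in the Ang II-only hearts against 0.03, 0.06 and 0.09 FPKM in the Tec-treated hearts, below the limit for testing. Ifi209 and Ifi208, also below the limit, were lower in each Tec-treated heart than in any Ang II-only heart. Ifi207 and Ifi205, at 4.22 ± 0.155 and 4.81 ± 0.733 FPKM without Tec (SD, n = 3), differed by -0.19 ± 0.15 and -0.17 ± 0.13 on the log2 scale (standard error), close to the median of all tested genes. Of the 9 other p200 genes in the table, 3 were tested, and 1 of them, Ifi211, had an unadjusted p-value under 0.05.

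The p200 genes are near-identical in places, so their levels are uncertain where fragments fit several of them. In GENCODE M21, whose limits of Mndal differ from those deposited, Mndal and Ifi203 share 37 exonic bases on the same strand. At the deposited positions given above, these genes do not overlap. The pseudogene Ifi203-ps had 2.55, 2.75 and 3.25 FPKM in the Ang II-only hearts against 3.52, 2.91 and 2.45 FPKM in the Tec-treated hearts. The sum of Ifi203 and Ifi203-ps was 7.04 ± 0.385 (SD, n = 3) and 6.40 ± 0.955 FPKM (SD, n = 3), a difference within the spread. Ifi204 over Ifi203 was 0.707, 1.10 and 0.815 in the Ang II-only hearts against 0.331, 0.477 and 0.567 in the Tec-treated hearts, without overlap, so the members of the cluster did not keep 1 ratio between the groups.

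**Figure D3:**
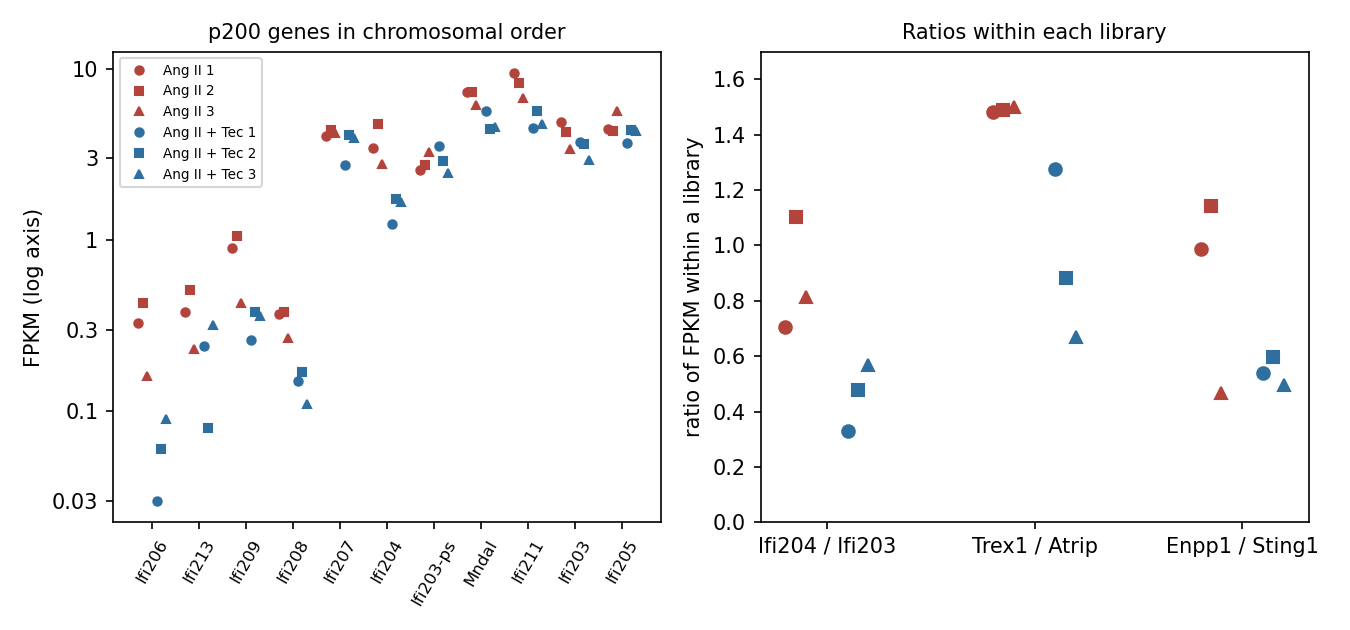
Left, FPKM on a log axis of 11 genes of the p200 cluster in chromosomal order, 1 marker per heart. Right, ratios of FPKM within each library on a linear axis. Above the limit for testing, Ifi204, Mndal and Ifi211 separate the groups, whereas Ifi203, Ifi205 and Ifi207 overlap. Ifi204 over Ifi203 is at most 0.567 in the Ang II + Tec hearts and at least 0.707 in the Ang II hearts.

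Interferon-inducible genes often carry an interferon-stimulated response element, whose core was searched as GAAA, any 2 bases and GAAA again, or as TTTC, any 2 bases and TTTC on the other strand. Promoter windows from 250 bases before to 50 bases after a start site (RefSeq, GRCm38.p6) were matched for 8 of the 10 genes, 11 windows in all. The core occurred on either strand in 3 of the 11 windows, those of Mndal and Ifi203, and in 3.44% of the 32851 windows of all genes (3.99% of genes). It was not among the letters of the windows of Cgas, Trex1, Enpp1, Tbk1, Ikbke and Irf3. Of 9 other p200 genes with a window, 7 held it. The windows below are those of the p200 genes above the limit for testing whose core starts within the 50 bases before the start site, given to show how alike this stretch is. On the deposited values, Mndal and Ifi211 separated the groups, and Ifi203 and Ifi207 did not. Ifi206 and Ifi208, below the limit, also separated the groups and had the core 40 and 58 bases before their start sites. Ifi205, above the limit and with overlapping groups, had its first core 134 bases before. Ifi209, below the limit, separated the groups without a core in its window. Ifi213 and Ifi214, also below it, held the core while their groups overlapped. Aim2, a further p200 gene below the limit, had no core and overlapping groups. No window was matched for Ifi204. Whether the core goes with the difference between the groups was not tested. Capitals mark the core, each window is read in the direction of transcription from the minus strand, and the core starts 36 bases before the start site in Mndal, 37 in Ifi211, 35 in Ifi203 and 41 in Ifi207.
Mndal, chr1:173880138-173880437: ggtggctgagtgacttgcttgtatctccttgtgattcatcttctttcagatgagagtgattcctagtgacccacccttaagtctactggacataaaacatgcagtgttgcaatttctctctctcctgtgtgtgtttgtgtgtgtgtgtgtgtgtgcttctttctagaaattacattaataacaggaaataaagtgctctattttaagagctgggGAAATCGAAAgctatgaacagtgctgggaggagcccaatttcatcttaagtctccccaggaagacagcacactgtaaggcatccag
Ifi211, chr1:173912997-173913296: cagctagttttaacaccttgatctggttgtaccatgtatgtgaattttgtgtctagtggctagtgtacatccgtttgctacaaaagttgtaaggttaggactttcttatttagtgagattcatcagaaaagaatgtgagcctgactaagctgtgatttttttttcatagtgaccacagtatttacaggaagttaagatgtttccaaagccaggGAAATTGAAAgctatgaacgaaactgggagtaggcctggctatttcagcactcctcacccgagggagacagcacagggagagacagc
Ifi203, chr1:173942443-173942742: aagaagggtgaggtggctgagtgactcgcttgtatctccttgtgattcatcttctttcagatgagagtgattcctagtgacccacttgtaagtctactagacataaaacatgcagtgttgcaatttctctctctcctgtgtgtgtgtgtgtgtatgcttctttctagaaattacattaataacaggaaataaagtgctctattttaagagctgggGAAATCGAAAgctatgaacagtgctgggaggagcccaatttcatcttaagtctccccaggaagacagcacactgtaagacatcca
Ifi207, chr1:173741760-173742059: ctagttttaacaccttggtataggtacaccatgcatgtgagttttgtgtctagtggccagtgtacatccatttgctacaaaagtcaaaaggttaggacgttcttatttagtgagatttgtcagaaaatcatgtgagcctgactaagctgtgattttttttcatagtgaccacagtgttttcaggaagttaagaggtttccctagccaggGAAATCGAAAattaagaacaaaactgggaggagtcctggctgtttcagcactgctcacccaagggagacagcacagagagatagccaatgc
The core read GAAATCGAAA in Mndal, Ifi203 and Ifi207 and GAAATTGAAA in Ifi211. Another start site of Ifi203 had no core in its window, and another of Mndal had it on the opposite strand. These matches are letters in a window and were not tested for binding.

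The rest of the pathway was described by 7 lists with 124 tested genes, of which 113 were lower with Tec, 27 of them at an unadjusted p-value under 0.05, 1 was higher at that limit and 0 had an adjusted p-value under 0.05. Of all tested genes, 80% were lower, 16.5% at that limit, and 2.09% were higher at it. Their median log2 fold change was -0.22, closer to the -0.17 of all tested genes than to the -0.49 of the 8 tested members. Of 21 other sensors of DNA and RNA, 18 were lower, with a median of -0.15, and 1 had an unadjusted p-value under 0.05, a share below the 16.5% of all tested genes. This was Zbp1, a sensor of Z-form nucleic acids, at 0.95, 1.36 and 0.54 FPKM in the Ang II-only hearts against 0.21, 0.26 and 0.34 FPKM in the Tec-treated hearts.

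The nucleases and genes of nucleotide control include some that degrade DNA, as Trex1 does. Of 16 tested genes, 14 were lower, with a median of -0.33, and 6 had an unadjusted p-value under 0.05. Of all tested genes, 80% were lower, 16.5% at that limit. Pld4, an exonuclease of endolysosomes, had a log2 fold change of -0.74 (standard error 0.19), Banf1, which coats DNA in the nucleus, -0.39 (standard error 0.13), and Dnase2a, the lysosomal DNase, -0.32 (standard error 0.11). Each of these 3 genes separated the groups, and Dnase1l2 did so too, at -0.34 (standard error 0.12). With Rnaseh2c and Dnase1l1, 6 of the 16 tested genes did, where 18.9% of all tested genes separated in this direction. For cGAMP transport, 8 of 9 tested genes were lower, with a median of -0.17, and the 2 at an unadjusted p-value under 0.05 were the importer-family gene Slc46a1 (-0.40, standard error 0.11) and the ATP-gated channel gene P2rx7 (-0.49, standard error 0.18). The cGAMP exporter Abcc1 had a log2 fold change of -0.030 (standard error 0.10), with 2.25 to 2.45 FPKM over all 6 hearts.

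For STING trafficking and modification, 30 of 32 tested genes were lower, with a median of -0.19, 4 of them at an unadjusted p-value under 0.05, a smaller share than the 16.5% of all tested genes. The log2 fold change was -0.70 (standard error 0.19) for Trim30a, an interferon-inducible ligase, -0.56 (standard error 0.19) for Usp18, which removes ISG15 from proteins, and -0.49 (standard error 0.20) for Surf4, a cargo receptor of the early secretory route. Insig1, an endoplasmic reticulum protein that controls sterol sensing, was the only gene of the 7 lists higher at that limit, at 4.50, 4.81 and 3.88 FPKM in the Ang II-only hearts against 5.82, 7.06 and 5.57 FPKM in the Tec-treated hearts (log2 fold change 0.40, standard error 0.13). The groups did not overlap for Insig1, a separation in that direction seen in 2.9% of all tested genes.

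Around TBK1 and IRF3, 26 of 29 tested genes were lower, with a median of -0.20, and 5 had an unadjusted p-value under 0.05, a share near the 16.5% of all tested genes. Irf7, the interferon-inducible relative of Irf3, had 9.59, 8.41 and 4.96 FPKM in the Ang II-only hearts against 3.11, 2.92 and 4.01 FPKM in the Tec-treated hearts (log2 fold change -0.96, standard error 0.23, limma adjusted p-value 0.197). Irf5 and Trim21 were at -0.46 and -0.31. The scaffold Tank was at -0.077 (standard error 0.13), nearer to 0 than its kinase Tbk1 at -0.21. Of the early targets of IRF3 and interferon, 14 of 14 tested genes were lower, with a median of -0.46, and 8 had an unadjusted p-value under 0.05. Stat2, Oasl2, Isg15 and Ifit3 were at log2 fold changes of -0.47, -0.62, -1.33 and -0.86 (standard errors 0.14, 0.19, 0.42 and 0.28). Isg15 had 9.08, 10.3 and 2.61 FPKM in the Ang II-only hearts against 1.42, 2.11 and 2.46 FPKM in the Tec-treated hearts (limma adjusted p-value 0.222). For the mean of this list, Ang II replicate 3 was at 9.77% of the way from the Ang II + Tec mean to Ang II replicates 1 and 2. The list median thus rests mainly on those 2 hearts. Ifnb1, the interferon gene that IRF3 switches on, was listed at 0 in 5 of the 6 libraries and at 0.03 FPKM in the other, so no difference in it was detectable.

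**Figure D4:**
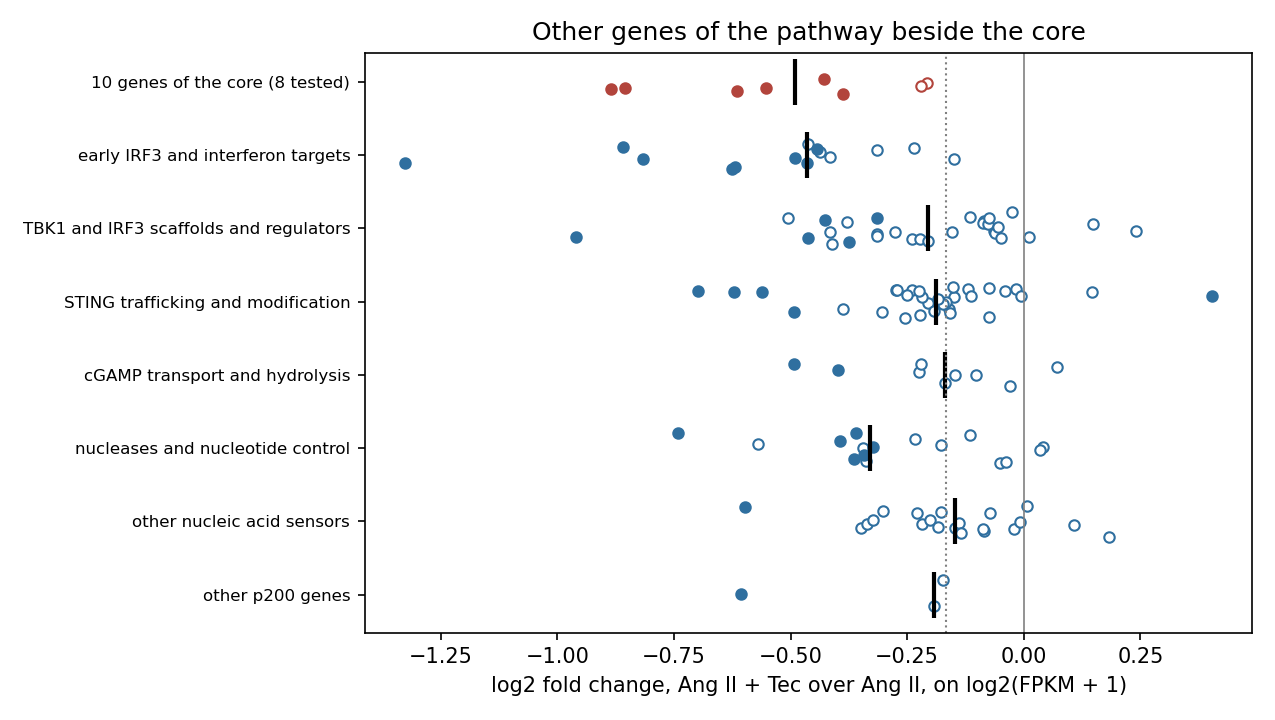
Log2 fold change (Ang II + Tec over Ang II, on log2(FPKM + 1)) of the tested genes of 7 pathway lists and of the 8 tested core genes, 1 circle per gene, filled at an unadjusted limma p-value under 0.05, with a black bar at the median of each list and a dotted line at the median of all tested genes (-0.17). The core genes (-0.49) and the early targets (-0.46) have the lowest medians, and Insig1 is the filled circle on the right (0.40).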

How the data were processed

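Hearts of 3 mice given Ang II and 3 given Ang II and Tec were sequenced from poly(A) RNA. Reads were trimmed (Cutadapt) and inspected (FastQC) by the authors, who deposited 1 table of FPKM with 30914 genes. Per the labels, the submitters' processing notes name HISAT2 2.0, StringTie 1.3.0, Bowtie 0.12.2 and the build mm8, without roles. The gene coordinates in the table have the same start and end as GENCODE M21 on GRCm38 for 86.8% of the 30832 genes in both, so coordinates are given on GRCm38. FPKM are not counts and no count model was used.

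Genes with at least 0.5 FPKM in at least 3 of 6 libraries (13089) were fitted with limma 3.58.1 in R 4.3.3 on log2(FPKM + 1), with a variance trend and Benjamini-Hochberg adjustment over all tested genes. The fit was tested on simulated data. Cgas and Ikbke, below the limit, were compared by an exact permutation test. The error is the spread between mice, and the relative depth of 0.941 to 1.26 does not give counting intervals. The 10 genes, the lists and the alternatives were chosen with earlier results of these data known. All 10 genes were named; from the lists, up to 4 genes with the lowest unadjusted p-values were named, while C1qa, Abcc1, Tank and Ifnb1 were picked with their values known, and a gene that the rule names is not reported here. The check made did not settle whether the replicate numbers pair the mice, and the main fit did not use them as pairs. Figures used matplotlib 3.10.9.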

Additional observations from a re-analysis of the deposited data

How the results depend on the processing

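All 169 values of the 10 genes under the alternatives stayed below 0, with Ifi203 and Tbk1 nearest to it, at -0.016 and -0.0071 after quantile normalization. The 21 genes called among all tested genes became 3 with no filter on low FPKM, 505 with library weights and between 2 and 557 in the fits without 1 library. The library weights (0.191 for Ang II replicate 3 to 4.46 for Ang II replicate 1) were estimated from the same 6 libraries and put 54.6% of all tested genes lower at an adjusted p-value under 0.05. The 0 of 8 members called became 1, Enpp1, with library weights and between 0 and 1 without 1 library (1 without Ang II replicate 3). The 6 members lower at an unadjusted p-value under 0.05 became 3 with no filter, 3 under median-of-ratios scaling, 3 after quantile normalization and 2 to 7 without 1 library (3 when Ang II replicate 1 or 2 or Ang II + Tec replicate 1 was left out, 2 for Ang II + Tec replicate 3). The share of all tested genes lower at that limit moved too, from 16.5% to 9.51% with no filter, 8.2% with the median of ratios, 7.85% with quantiles and 6.29% to 39.3% without 1 library. The cause was not tested.

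The differences of role means moved by more than the spread with a pseudocount of 0.1, to -0.64 for sensors, -1.10 for negative regulators and -0.45 for kinases. After rescaling by the median of ratios they were -0.27 for sensors and -0.075 for kinases, and after quantile normalization -0.27 for sensors, -0.17 for Irf3 and -0.18 for sensors minus kinases. Without 1 library they ranged from -0.52 to -0.36 (sensors), -0.90 to -0.43 (Sting1), -0.99 to -0.55 (negative regulators), -0.26 to -0.13 (kinases), -0.52 to -0.28 (Irf3), -0.26 to -0.21 (sensors minus kinases), -0.73 to -0.42 (negative regulators minus kinases) and 0.19 to 0.47 (sensors minus negative regulators).

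With the replicate number as a block, 22 genes were called, 0 of them members, and 6 of the 8 tested members were lower at an unadjusted p-value under 0.05, against 22.9% of all tested genes. The deviations of equally numbered mice correlated over genes at -0.039, 0.43 and 0.38, and those of unequally numbered mice at -0.44 to 0.23. Thus 0.43 and 0.38 lay above each unequal pair, whereas -0.039 lay within their range. These values did not settle whether the numbers pair the mice, and the main fit used no pairs. The differences of Cgas and Ikbke, the lowest genes, move with the pseudocount and were -0.62 and -0.64 with a pseudocount of 0.1.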
